A study of Mus musculus with 2 samples.

Results

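The growth hormone, STAT5 and Bcl6 axis of the liver was followed through 9 genes in RNA from mice with and without dietary squalene. The genes are the growth hormone receptor Ghr, the kinase Jak2, the transcription factors Stat5a and Stat5b, the feedback inhibitors Socs2 and Cish, the hormone products Igf1 and Igfals, and the repressor Bcl6. Bcl6 was picked for its difference between the groups, so it was chosen by its measured ratio in these same arrays, and the other 8 were taken as its hepatic signalling partners. All 9 were found on the array, as 18 probe sets that each carry only that gene's symbol, out of 12393 genes with such a probe set. Where a gene had several probe sets, the one with the highest mean log2 signal over both groups represents it, and the others are given beside it.

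Both groups were livers of male mice deficient in apolipoprotein E, the protein by which lipoprotein remnants are cleared, on a C57BL/6J/OLA129 background and labelled as 2 months old. The control pool came from mice on chow with 1% glycerol in water to drink for 10 weeks. The squalene pool came from mice whose glycerol drink also carried squalene, the hydrocarbon from which sterols are made. The dose was 1 g/kg/day, again over 10 weeks. Each pool was hybridised to 1 array, so there are no replicates, every ratio compares these 2 pools, and no test between the groups can be made. The sources used here do not give the number of animals pooled, their feeding state or when in the day livers were taken. The growth text is the same for both samples, so the groups rest on the sample titles. Neither pool has normal apolipoprotein E, and Apoe read 141.0 and 130.6 in them. No female sample was compared.

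Growth hormone from the pituitary binds GHR on hepatocytes, and the bound kinase JAK2 phosphorylates STAT5A and STAT5B, which then enter the nucleus and switch on genes such as Igf1, Igfals, Socs2 and Cish. SOCS2 and CISH feed back on the receptor, and IGF1 circulates in a complex with IGFBP3 and the acid-labile subunit encoded by Igfals. BCL6 is a transcriptional repressor that recognises DNA overlapping that of STAT5, and growth hormone lowers Bcl6 transcription in liver. Male mice release growth hormone in pulses, which sets the sex-biased expression of many liver genes through STAT5B.

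The values are MAS5 signals, a probe set's brightness in arbitrary units. Signals of different probe sets cannot be ranked against each other, so each probe set is read only as squalene over control. The summed signals of lists given below follow their brightest probe sets and are a description only. Genes count as measured if at least 1 pool reached its array median (40.0 for control, 41.5 for squalene), which left 7322 genes, the 9 included. Their median log2 ratio was 0.01, and 78.3% of them differed by less than 0.5 in either direction. By over 0.5, 11.2% were higher and 10.4% lower, the pooled background for every count of higher and lower genes below. The share past 0.5 in either direction depended on brightness, at 42.6%, 15.6% and 6.80% in the dimmest, middle and brightest tertile. So the pooled share is too low for dim genes and too high for bright ones. Pairs of probe sets of the same gene gave an SD of the log2 ratio of 0.80, 0.36 and 0.23 in the dimmest, middle and brightest tertile of genes, which is the only error these arrays hold. All 18 spike-in controls read lower with squalene, so scaling to their median would add 0.26 to every ratio below. Hepatocyte markers bore out the tissue label, with 15 of 15 measured, the lowest signal 3564.5, and all within 0.5 of 0.

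Promoter sequences are shown first because STAT5 and BCL6 meet at related DNA letters. RefSeq windows of 300 bases (build GRCm38.p6), from 250 bases before to 50 after a transcription start, were held for 8 of the 9 genes, 14 windows in all. Each was searched for TTCNNNGAA, the STAT5 consensus, which reads the same on both strands. TTCCTAGAA, letters typical of BCL6 sites, is 1 form of it. Matches lay in 5 of the 14 windows and in 3 of the 8 genes, Bcl6, Cish and Igfals, while 8.30% of all 32851 windows and 9.55% of all 27025 genes held 1. The windows of Ghr, Jak2, Stat5a, Stat5b and Igf1 had no match, which says only that these letters are not there. The stretches below give each match in capitals with 10 bases on either side, 5′ to 3′ on the gene's strand.
Cish, plus strand, chr9:107296649-107296688: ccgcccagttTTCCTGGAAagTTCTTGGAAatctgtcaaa
Igfals, first start, plus strand, chr17:24877598-24877626: gatctataatTTCTCAGAAaagaggctga
Igfals, second start, plus strand, chr17:24878163-24878191: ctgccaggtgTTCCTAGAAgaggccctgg
Bcl6, first start, minus strand, chr16:23988952-23988980: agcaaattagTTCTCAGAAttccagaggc
Bcl6, second start, minus strand, chr16:23981433-23981461: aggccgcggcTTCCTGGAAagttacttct
Bcl6, second start, minus strand, chr16:23981387-23981415: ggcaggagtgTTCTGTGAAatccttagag
Bcl6, second start, minus strand, chr16:23981353-23981381: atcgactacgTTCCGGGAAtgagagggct

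The Bcl6 window at the second, downstream start held 3 matches, 168, 122 and 88 bases before that start. Only 11 of the 32851 windows held 3 or more. In Cish, the feedback inhibitor, the matches are a tandem pair at the annotated start itself, at positions 1 and 12 of the transcript. The second Igfals match, 58 bases before its start, carries the letters TTCCTAGAA, which on either strand were in 0.411% of all windows. These counts describe the letters only. The 250 bases before the first Bcl6 start, where its match lies 118 bases upstream, read as follows.
Bcl6, first start, minus strand, chr16:23988853-23989102: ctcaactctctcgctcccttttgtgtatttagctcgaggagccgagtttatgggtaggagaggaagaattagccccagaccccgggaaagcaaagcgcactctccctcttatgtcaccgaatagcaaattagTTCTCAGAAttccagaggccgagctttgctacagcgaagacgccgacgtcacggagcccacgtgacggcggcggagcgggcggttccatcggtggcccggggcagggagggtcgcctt

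Across the array, genes with and without such a match had similar ratios. Among 481 measured genes with a match the median log2 ratio was 0.00, with 10.8% higher and 9.15% lower by over 0.5. Among 5529 without one the median was 0.01, with 11.2% and 10.1%. The carriers themselves differed from each other, with Bcl6 at 1.93, Cish at 0.25 and Igfals at -0.33.

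The receptor read alike in both pools. Ghr, which encodes the hormone's receptor and, by alternative splicing, its secreted binding protein, read 4000.7 in control liver and 4045.9 with squalene (log2 ratio 0.02). Its second probe set read 3219.9 and 2965.2 (-0.12), and the third 233.1 and 263.8 (0.18). The values stand on both sides of 0 and within 0.18 of it on all 3. The SD between probe sets at the brightness of the first is 0.23.

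Jak2, the kinase that carries the receptor's signal, read slightly lower in the squalene pool on both of its probe sets. The brighter gave 154.1 and 112.8, a 1.37-fold lower signal (log2 ratio -0.45). The dimmer gave 56.5 and 47.9 (-0.24). Neither passed 0.5, but the first exceeds the SD of 0.36 between probe sets at its brightness. It stayed below 0 in all 9 alternative settings tried, from -0.50 to -0.19, the latter after scaling to the spike-ins. Of these, the floor at the median and the plain-suffix probe sets could only return its reported value.

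The STAT5 genes had no settled difference. Stat5a, the form known best from mammary gland, read 78.2 and 84.2 (log2 ratio 0.11). Its other probe set, at 0.9 and 2.1, is near the floor of both arrays and its ratio of 1.22 cannot be read. Stat5b, the main form in liver, read 111.1 in control liver and 59.4 with squalene on its brighter probe set, a 1.87-fold lower signal (log2 ratio -0.90). Its companion, designed from the same transcript record, gave 22.4 and 39.9, a 1.78-fold higher signal (0.83). The probe sets thus point in opposite directions, their mean is -0.04, and the dimmer one lies below the median in both pools. Stat5a and Stat5b are close paralogs, so signal can be shared between them.

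**Figure D1:**
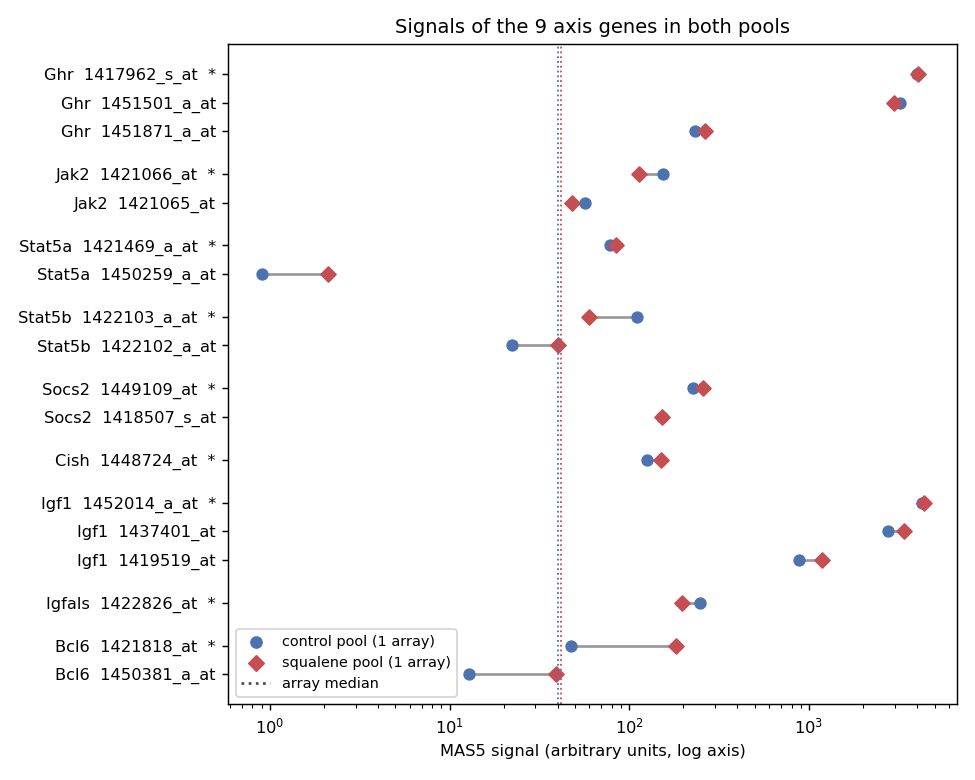
MAS5 signal on a log axis for the 18 probe sets of the 9 genes, with the control pool as blue circles and the squalene pool as red diamonds (1 array each); a star marks the probe set that represents its gene and dotted lines mark the array medians of 40.0 and 41.5. The 2 probe sets of Bcl6 are both wide apart with the squalene pool higher, those of Stat5b go opposite ways, and those of Ghr nearly overlap.

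The feedback inhibitors, which are among the most direct readouts of STAT5 activity, differed little. Socs2, whose protein marks the active receptor for degradation, read 227.6 in control liver and 258.6 with squalene (log2 ratio 0.18). Its other probe set read 152.4 and 151.2 (-0.01). Cish, which competes with STAT5 for the receptor, read 126.0 and 149.9 on its only probe set (0.25). All of these differences are smaller than the SD of 0.36 between probe sets at that brightness. Cish reached 0.51 only after scaling to the spike-ins.

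The hormone products also stayed close. Igf1, the growth factor that the liver releases into blood, read 4264.5 and 4382.4 (log2 ratio 0.04) on its brightest probe set. The others gave 2738.5 and 3371.7 (0.30) and 884.4 and 1177.5 (0.41), so the squalene pool was higher on all 3 by 1.03 to 1.33-fold. Igfals, which encodes the acid-labile subunit that keeps IGF1 in the circulation, went the other way, from 247.6 to 197.2 (-0.33), a 1.26-fold lower signal on its only probe set. Igf1 stayed above 0 in all 9 alternatives, down to 0.00 after centring. Igfals stayed below 0 in the 6 alternatives of scaling, pseudocount and floor, from -0.39 to -0.07. With a single probe set, the alternatives of probe set choice could only return its reported value.

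Bcl6 stood apart from its partners, as it was chosen to. The repressor read 47.7 in control liver and 181.7 with squalene on its brighter probe set, a 3.81-fold higher signal (log2 ratio 1.93). The dimmer one, designed from the same transcript record, read 12.9 and 39.2 (1.60), below the median in both pools. Both probe sets were thus higher in the squalene pool and lie 0.33 apart. With a mean log2 signal just under the boundary of the dimmest tertile, Bcl6 is set against the SD of 0.80. Its ratio held between 1.60 and 2.19 over the 9 alternatives. Of the 6452 genes that reached the median in both pools, it ranked 3 from the highest. Since Bcl6 was picked on this ratio, the range and the rank describe it and give it no support.

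Bcl6 is also a marker of germinal centre B cells and follicular helper T cells, and most markers of those cells lay below the array median in both pools. Of 9 B cell markers with a probe set, 1 was measured, the immunoglobulin gene Ighm (48.1 against 78.8), whose other probe sets ran from -3.02 to 3.35. The summed signal of all 9 was 212.6 in control liver and 228.3 with squalene. Of 9 T cell markers 0 were measured, with sums over the 9 of 72.6 and 109.3, and the follicular markers Cxcr5 and Icos were among them. No marker is listed at 0, and the dimmer Bcl6 probe set was itself below the median in both pools. The part of lymphocytes in the Bcl6 difference was not tested.

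Many clock genes stood higher together with Bcl6. Of 15 measured clock genes 9 were higher and 2 lower by over 0.5, with a median of 0.70, beside 11.2% higher and 10.4% lower among all measured genes. The summed signal of all 17 with a probe set was 3361.4 in control liver and 5910.0 with squalene. The higher ones included Usp2 (65.5 against 525.3) and Dbp (log2 ratio 1.39), each higher on its other probe set too, while Arntl, the activator of the loop, was at -2.59. Per3 read 2.61, with -0.31 and 1.02 on its other probe sets, and Per2 2.04, with -2.41 on its other. Per2, Per3, Arntl and the other lower gene, Per1 (-0.70), each had 1 signal below the median. Of the 11 clock genes that reached it in both pools, 7 were higher and 0 lower (median 0.70). The shares among all genes that reached it in both were 7.84% and 6.34%. The part of clock time in the Bcl6 difference was not tested. The 6 genes whose pair of signals was most like that of Bcl6, by distance on the log2 scale over both arrays among those same 6452 genes, were Oxsr1, Cox8c, Maml1, Ugt2b37, Ints6 and Wdr36. Their log2 ratios ran from 1.21 for Ints6 to 1.47 for Oxsr1. The distance uses signal levels of different probe sets and starts from the values Bcl6 was picked on, so the list is a description only. The other probe sets of Maml1 (-0.16), Ints6 (0.16) and Wdr36 (0.00) stood near 0, and Oxsr1, Cox8c and Ugt2b37 have a single probe set.

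**Figure D2:**
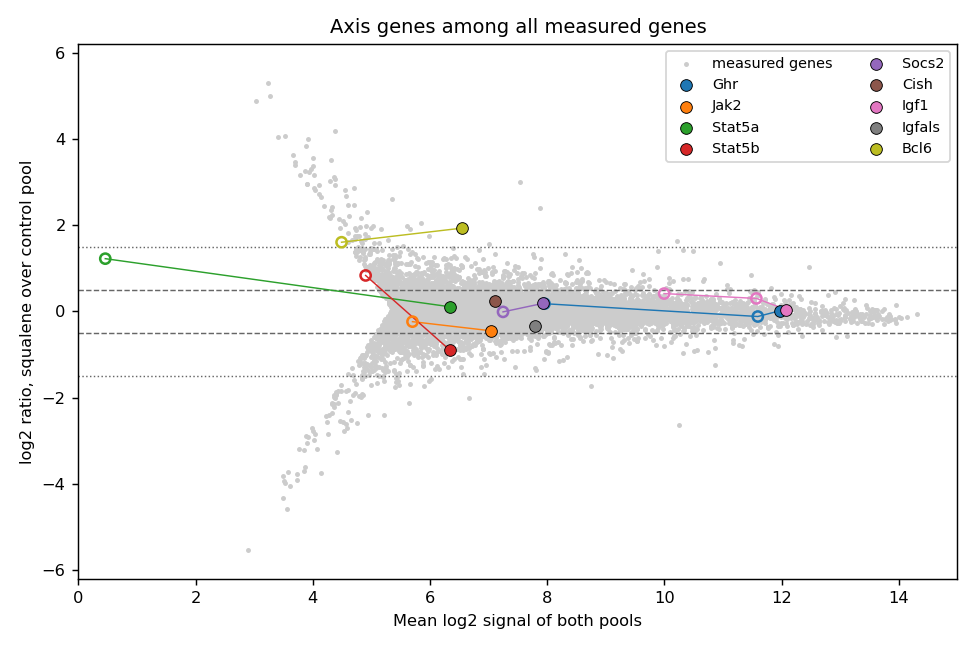
Log2 ratio of the squalene over the control pool against the mean log2 signal for 7322 measured genes (grey), with the 9 axis genes in colour; filled points represent the gene, open points are its other probe sets, and lines join them. Dashed lines mark 0.5 and dotted lines 1.5 in both directions; Bcl6 is the only axis gene whose representing point lies past 1.5, and the open point of Stat5a lies at the floor.

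All 9 genes passed the filter, and the representing signals of all reached the median in both pools. By the band of 0.5, 1 was higher (Bcl6), 1 lower (Stat5b) and 7 lay between. Over all measured genes 11.2% were higher and 10.4% lower by the same band. Bcl6 and Stat5b are both in the dimmest tertile, where 42.6% of genes passed it in either direction. Past a log2 ratio of 1.5, the limit the submitters give for their own screen, stood only Bcl6, beside 2.25% of measured genes. In the dimmest tertile the share past 1.5 was 6.47%. Since Bcl6 was chosen on this ratio, nothing is read from its own count. Without it, the median of the other 8 was 0.03, beside 0.01 for all measured genes.

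**Figure D3:**
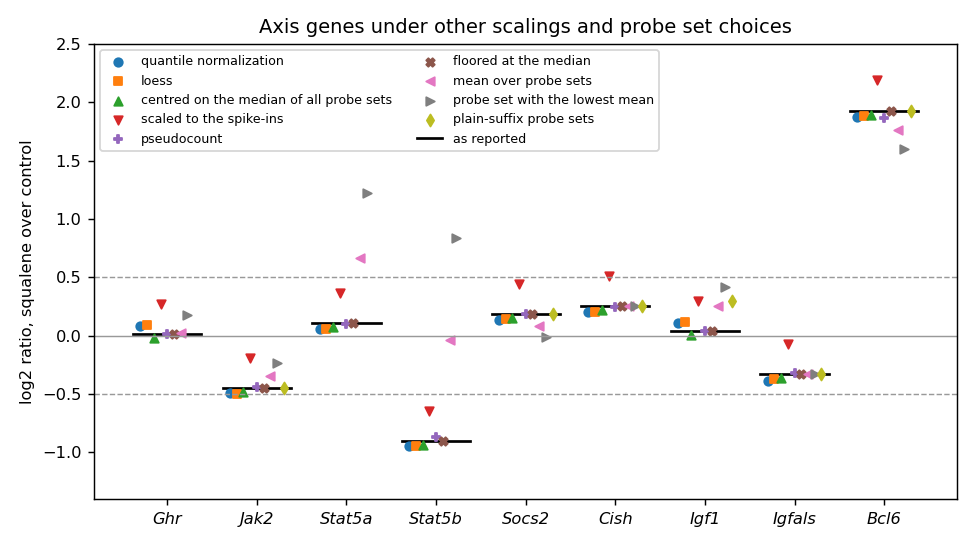
Log2 ratio of each axis gene as reported (black bars) and under other scalings and probe set choices (symbols; 8 for Ghr, Stat5a and Stat5b, 9 for the rest), with dashed lines at 0.5 in both directions. Bcl6 stays between 1.60 and 2.19, Stat5b runs from -0.95 to 0.83, and the rest stay within 0.5 of 0 apart from Cish at 0.51 after scaling to the spike-ins and Stat5a, which reaches 1.22 on its dim probe set.

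Other inhibitors of JAK and STAT signalling stood mostly between the limits. Of 16 with a probe set 12 were measured (median -0.07), 0 of them higher, 2 lower and 10 between. Socs3, which blocks JAK2 and is induced by growth hormone and by interleukin 6, read 161.3 in control liver and 88.5 with squalene, a 1.82-fold lower signal (log2 ratio -0.87). Its other probe sets gave -1.25 and -1.47, so all 3 were lower. Socs5 (-0.62) dropped under the median with squalene, while another probe set read 1.06. The phosphatases Ptpn1 (-0.06), Ptpn2 (0.23) and Ptpn11 (0.10), which act on JAK and STAT proteins, stayed nearer 0. Pias3, a STAT inhibitor, read 0.41, and -0.35 on its other probe set.

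Adaptors and kinases that act beside STAT5 showed 1 higher member, 0 lower and 8 between, of 9 measured among 14 with a probe set (median 0.06). Pik3r1, the regulatory subunit of PI 3-kinase, read 48.9 and 116.2 (log2 ratio 1.25), but its other probe sets read 0.19 and 0.23. The insulin receptor substrate Irs1 read -0.21 and the adaptor Shc1 -0.25, with 0.76 on a dimmer probe set of Shc1. Among other JAKs, STATs and cytokine receptors, 1 of 10 measured was higher, 0 lower and 9 between, of 14 with a probe set (median 0.13). That was Il6ra, the interleukin 6 receptor, at 121.7 against 254.2 (1.06), with 0.41 on its other probe set. Stat3, which Il6ra signals through, read 0.10. Jak1 read 0.35, but -0.39 and -0.36 on its other probe sets. The leukaemia inhibitory factor receptor Lifr read -0.34, but 0.08 on both of its others.

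The IGF system around Igf1 had 3 higher, 1 lower and 5 between, of 9 measured among 10 (median -0.07). All measured genes had 11.2% higher and 10.4% lower. Igfbp1, a binding protein that insulin represses, read 3306.7 in control liver and 2106.6 with squalene (log2 ratio -0.65). Igfbp3, the binding protein that forms the complex with IGF1 and the acid-labile subunit, read 135.8 and 129.0 (-0.07). Igfbp5 (49.9 against 74.1) was higher by 0.57. Igf2 and Igfbp6 were measured only through the squalene pool, at control signals of 3.9 and 26.0, and the other probe set of Igf2 read -1.49. Of the 7 genes that reached the median in both pools, 1 was higher and 1 lower (median -0.07). The shares among all genes that reached it in both pools were 7.84% and 6.34%.

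Of 8 immediate response genes of growth hormone 5 were measured (median -0.54), 0 of them higher, 3 lower and 2 between, beside 10.4% lower among all measured genes. Cdkn1a, a cell cycle inhibitor, read 177.1 in control liver and 82.0 with squalene (log2 ratio -1.11), and -1.31 on its other probe set. Gadd45g, a stress gene, read 258.3 and 168.3 (-0.62), and Egr1, an early transcription factor, 136.2 and 93.4 (-0.54). Jun read 0.06, with -0.53 on its other probe set, and Junb -0.18. Fos, Myc and Onecut1 were not measured. After scaling to the spike-ins the median was -0.29 and 1 gene was lower.

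Kupffer cell markers stood mostly lower alongside these genes, as did some stellate cell and fibroblast markers. Of 13 measured Kupffer cell and macrophage markers, among 15 with a probe set, 13 lay below 0. By over 0.5, 8 of them were lower, beside 10.4% of all measured genes. Of the 12 that reached the median in both pools, 7 were lower. The summed signal of all 15 was 7684.5 for control and 5040.8 for squalene. Of 9 measured stellate cell and fibroblast markers 5 were lower and 0 higher, and all 12 with a probe set summed to 4598.3 and 4076.4. The lower ones were Col1a2, Col3a1, Acta2, Pdgfrb and Lum. Reln (0.02), Rgs5 (0.01) and Dcn (-0.07) stood near 0, and Col1a1, Des and Lrat were not measured. Endothelial markers had 1 higher, 2 lower and 8 between of 11 measured, with a median of -0.03, and all 12 summed to 3254.3 and 2502.6. Those sums rest mostly on the 2 lower genes, Clec4g (864.9 against 522.2) and Fcgr2b (1007.0 against 656.9). Neutrophil markers had 1 higher and 2 lower of 3 measured, and all 8 summed to 237.5 and 197.2. Of the 3, only S100a8 (-0.50) reached the median in both pools. Ngp, the higher one, passed the filter only through the squalene pool, and S100a9 only through the control pool. Few or none were measured for exocrine pancreas (3 of 7), red cells (1 of 4), fat (1 of 5) and bile duct cells (0 of 6). Of these 1 pancreas marker passed 0.5, lower. That marker, Cela2a (48.9 against 31.3), reached the median only in the control pool. In bulk liver RNA, fewer cells of a type and less RNA per cell cannot be told apart. The part of these cells in the lower signals of Socs3, Cdkn1a, Egr1 and the genes below was not tested.

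Male-biased genes that depend on pulses of growth hormone had 0 higher, 3 lower and 14 between, beside 10.4% lower among all measured genes. All 17 with a probe set were measured, 12 lay below 0, and the median was -0.17. After scaling to the spike-ins the median turned to 0.09 and 1 gene was lower. Elovl3, a fatty acid elongase, read 2869.0 and 1215.5 (log2 ratio -1.24). Hsd3b5, a steroid-metabolising enzyme of male liver, read 1410.8 in control liver and 867.1 with squalene (-0.70). Mup3, a urinary pheromone carrier, read 9623.8 and 6356.2 (-0.60), but 3.9 and 50.7 (3.70) on its other probe set. The members of the Mup and Cyp2d families are near-identical copies, so their signals can be shared. Other classic male markers stood closer to 0, with Cyp2d9 at -0.17, Cyp7b1 at -0.09, Cyp4a12a at 0.16 and the transporter gene Slco1a1 at -0.37.

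Female-biased genes, which pulses of growth hormone keep low, were mostly not measured in these male livers. Of 17 with a probe set 8 were measured, 4 of them higher, 1 lower and 3 between, and the median of 0.36 includes members that passed only through the squalene pool. Those were Cyp17a1, a steroid hydroxylase (25.9 against 97.4), and Cyp3a44, a drug-metabolising enzyme (29.9 against 81.7). Of the 6 that reached the median in both pools, 2 were higher, 1 lower and 3 between (median -0.07). Of all genes that reached it in both pools, 7.84% were higher and 6.34% lower. Fmo2, a flavin monooxygenase, read 79.3 in control liver and 183.0 with squalene (log2 ratio 1.21), and its other probe sets gave 0.88 and 1.35. Trim24, a corepressor, read 104.3 and 158.8 (0.61). Cyp2b10 went the other way, at 1782.2 and 913.1 (-0.96), and stood between -1.28 and -0.87 on its other probe sets. The repressor Cux2 and the enzymes Cyp2b9 and Sult3a1, which are strongly female in liver, were not measured.

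**Figure D4:**
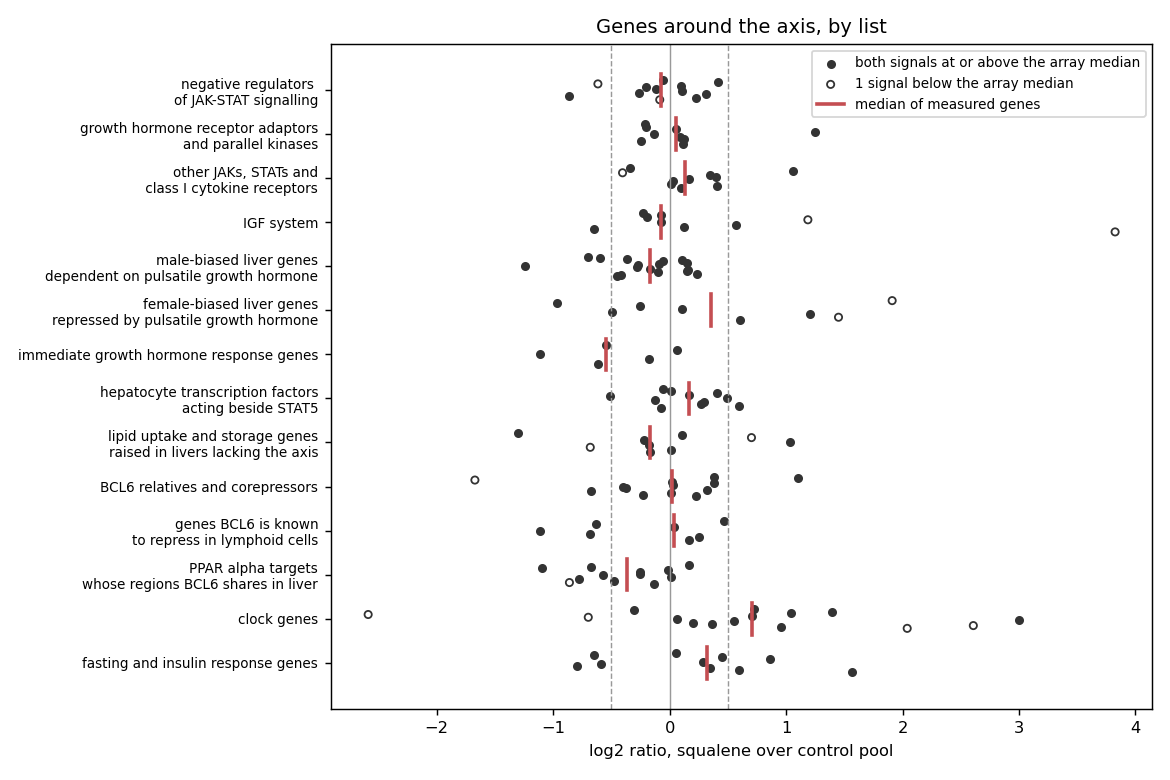
Log2 ratios of the squalene over the control pool for measured genes in 14 lists around the axis, each point 1 gene, with a red bar at the list's median and dashed lines at 0.5 in both directions. Filled points reached the array median in both pools and open points in 1 only; clock genes lie mostly to the right (median 0.70), immediate response genes to the left (median -0.54), and most other lists straddle 0.

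Hepatocyte transcription factors that bind beside STAT5 differed little, with 1 higher, 1 lower and 9 between of 11 measured among 14 (median 0.17). Foxo1, which insulin keeps out of the nucleus, read 187.8 and 283.7 (log2 ratio 0.60), and from 0.76 to 0.81 on its other probe sets. Foxa2, a pioneer factor, read 275.3 in control liver and 192.5 with squalene (-0.52). Cebpa (-0.06) and the glucocorticoid receptor Nr3c1 (0.01), which works with STAT5 on growth genes, stayed near 0. Hnf4a, a master factor of hepatocytes, read -0.13, but from 0.32 to 0.42 on its other probe sets.

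Partners of BCL6 had 1 higher, 2 lower and 10 between, of 13 measured among 16 (median 0.02). Zbtb16, a related zinc finger repressor, read 54.0 and 115.7 (log2 ratio 1.10), and 4.6 and 51.8 (3.49) on its dimmer probe set. Mta3, a corepressor subunit, read 69.1 in control liver and 43.2 with squalene (-0.68), and -0.54 on its other probe set. Hdac7 (-1.67) was dim with squalene, while another probe set read 0.83. Hdac3, the deacetylase of the corepressor complexes that BCL6 recruits, was at 0.38.

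Genes that BCL6 represses in lymphoid cells had 0 higher, 3 lower and 4 between, of 7 measured among 13 (median 0.04). The share lower among all measured genes was 10.4%. The 3 were Cdkn1a, already described, the adhesion receptor Cd44 (73.8 against 45.9, log2 ratio -0.69) and Id2, an inhibitor of transcription factors (1221.1 against 790.0, -0.63). The dimmer probe set of Cd44 read 0.14, and those of Id2 -1.16 and 0.06. Cd44 is also made by leukocytes, among them macrophages, whose markers were mostly lower here. Their part in its ratio was not tested. Prdm1, the classic BCL6 target of B cells, was not measured.

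Targets of PPAR alpha whose gene regions BCL6 shares in liver had 0 higher, 5 lower and 7 between, of 12 measured among 15. The list holds genes of fatty acid use and of lipid storage, and repression by BCL6 was not tested. Among all measured genes 11.2% were higher and 10.4% lower. The median was -0.36, and 10 of the 12 lay below 0. After scaling to the spike-ins the median was -0.11 and 3 were lower. Of 11 that reached the median in both pools, 4 were lower. Acaa1b, a peroxisomal thiolase, read 10804.4 in control liver and 7252.1 with squalene (log2 ratio -0.58). The other lower members were the thioesterase Acot1 (-1.09), the kinase Pdk4 (-0.86), which restrains glucose oxidation, the lipid droplet coat Plin2 (-0.78) and the peroxisomal enzyme Ehhadh (-0.67). Pdk4 was below the median with squalene. Vnn1, a pantetheinase, lay between the limits at 814.9 and 586.2 (-0.48). The mitochondrial carnitine genes Cpt1a (0.17) and Slc25a20 (-0.02) stayed near 0.

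Lipid uptake and storage genes, which are known to be high in livers that lack growth hormone signalling, went both ways. Of 12 with a probe set 9 were measured, 2 higher, 2 lower and 5 between (median -0.17, or 0.09 after scaling to the spike-ins). Scd1, a desaturase, was higher at 1.03, and Lpl, a lipase, lower at -1.30 but at 0.60 on its dimmer probe set. Plin4 (0.70) and Pparg (-0.68) each had 1 signal below the median. Vldlr, a lipoprotein receptor, read 89.3 and 78.9 (-0.18), and Cd36, a fatty acid receptor, 95.6 and 96.5. The other probe sets of both were dim, from -1.01 to 2.93 for Vldlr and from -1.08 to -0.27 for Cd36.

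Genes that respond to fasting and insulin had 3 higher, 3 lower and 4 between of 10 measured among 13. Their median was 0.32, and 7 of the 10 lay above 0. The coactivator Ppargc1a (1.56), Foxo3 (0.87) and Foxo1 (0.60) were higher. Other probe sets ran from 0.23 to 1.32 for Ppargc1a and from 0.29 to 1.12 for Foxo3. G6pc, the last enzyme of glucose release, read 3384.3 in control liver and 1950.1 with squalene (log2 ratio -0.80), beside Igfbp1 (-0.65) and the lipogenic factor Srebf1 (-0.59). Pck1, the key enzyme of gluconeogenesis, was at 0.06.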

How the data were processed

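The authors deposited probe set signal intensities on a linear scale, made with MAS5 per the submitters' processing notes, for 1 array of each pool. Both arrays had a 2%-trimmed mean of about 200 (200.1 each). Software version, scanner and target scaling were not given in the sources used here. Symbols came from the platform annotation, and all 18 probe sets of the members matched RefSeq by Entrez number. From the signals, log2 ratios were computed with no pseudocount, over 12393 genes with a single-symbol probe set. The members and the 14 pathway and 11 marker lists were chosen with earlier results of these data known. Named genes were all members, up to 4 of the largest ratios per list and those past 0.5 that reached the median in both pools, and the 6 genes nearest to Bcl6; further list members were named after their values were seen. The steps that represent genes and count ratios were run on simulated ratios without noise, which checks their arithmetic only. Alternatives were quantile normalization, loess (limma 3.58.1, R 4.3.3, span 0.3), centring, spike-in scaling, a pseudocount of 3.0, a floor at the median, other probe sets, other filters and bands of 1.0 and 1.5. The BCL6 letters and the comparison of genes with and without a motif were added after the values were seen. Protein sequences were not used here. Python 3.11.15, pandas 2.3.3, numpy 2.4.6 and matplotlib 3.10.9 did the rest.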

Additional observations from a re-analysis of the deposited data

How the results depend on the processing

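The ratio of Bcl6 moved by less than the wide SD of 0.80 between probe sets in all 9 alternatives (1.60 to 2.19). These rework the same values on which Bcl6 was picked. The floor leaves a gene unchanged when both its signals reach the median, as for all 9 members. Centring and spike-in scaling each shift every ratio by the same amount. Stat5b changed sign, to 0.83, with the probe set of lowest mean signal, and was -0.04 as the mean over probe sets. The count of members higher by over 0.5 was 2 after scaling to the spike-ins (Bcl6 and Cish) and 2 with the mean over probe sets (Bcl6 and Stat5a), and 0 with the probe set of lowest mean, where that of Bcl6 is below the median. The count lower was 0 with the mean over probe sets, the lowest or plain-suffix probe sets, a filter at the 75th percentile and bands of 1.0 and 1.5. Over all measured genes, 51.8% of the calls were higher, and 83.5% after scaling to the spike-ins, which moved the median to 0.26. Of 392 list counts under the alternatives, 107 moved by over 1.5 times. With 1 array a pool, no ratio has a replicate check. No paired analysis was possible because each group has 1 array.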
